A study of Mus musculus with 2 samples.

Results

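Genes of the cell cycle and of DNA replication were examined in the mandible of mouse fetuses at E18.5, late in gestation. The set has 43 genes, chosen by name for their role: 8 cyclins and kinases of G1, 11 genes of replication, 21 genes of S phase, G2 and mitosis, and 3 inhibitors of cyclin-dependent kinases. The platform annotation gave 41 of the 43 at least 1 probe set of their own, out of 19938 genes on the array, and all 41 lay above the floor described below on both arrays. No signal is given here for Ccnb1, and Cdkn1a had only a probe set that it shares with another gene.

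The tissue came from BALB/c fetuses null for Myf5 and MyoD together (the double knockout) and from BALB/c fetuses (the wild type). Each genotype is represented by 1 array made from 6 µg of total RNA, and the number of fetuses or litters behind each was not given in the sources used here. Cells enter the skeletal muscle lineage through the transcription factors Myf5 and MyoD (gene symbol Myod1). The labels give null genotypes with no tissue restriction, so that both genes are lost throughout the fetus. The purpose of the series, by its title, is the part that skeletal muscle plays as the jaw develops. With 1 array on each side there is no replicate and no test, and every difference below, given in log2 units as double knockout minus wild type, describes these 2 arrays.

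Dividing cells pass from G1 into S phase when D-type cyclins with Cdk4 or Cdk6, and then cyclin E with Cdk2, inactivate the retinoblastoma protein and free the E2F factors that switch on replication genes. Transcripts for mitosis follow in G2, through the NF-Y, MYB and FOXM1 factors and relief of the DREAM repressor complex. Kinase inhibitors oppose these steps. In skeletal muscle, myoblasts leave the cell cycle for good before they fuse.

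Signals are log2 values as deposited. The floor, below which a probe set was not called measured, was the median of the annotated probe sets, 6.19 on the double-knockout array and 6.18 on the wild-type array. It left 10393 genes measured on at least 1 array. Over all 35557 probe sets Pearson's r between the arrays was 0.980. Of the targeted genes, Myf5 was at 4.95 in the double knockout, below the floor, against 6.31 in the wild type. Myod1 was at 6.49 in the double knockout, against 7.14 in the wild type, or 1.58-fold lower, and stayed above the floor on the array labelled null for it. The position of their probes relative to the deleted parts was not given in the sources used here. Where a gene had more than 1 probe set over the floor, the differences of the 2 brightest ones varied between them with an SD of 0.23 (532 genes), which is the only spread these data give and leaves out animals and hybridisations.

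Nearly all of the cell cycle genes had slightly more signal in the double knockout. Of the 41 measured, 39 were higher (95.1%) and 2 were lower, against 67.0% of all measured genes higher and 32.2% lower. Their median difference was 0.27, where the median of all measured genes was 0.098. At least 1.2-fold higher were 21 of the 41 (51.2%, against 21.4% of all measured genes), and 1 was at least 1.2-fold lower (background 11.3%). None was 1.5-fold apart in either direction, where 3.07% of all measured genes were that much higher and 5.11% that much lower. Restricted to the genes that cleared the floor on both arrays, as all 41 did, 68.4% of all genes were higher and 21.9% at least 1.2-fold higher. After centring on the median of all measured genes, which puts their median difference at 0, 35 of 41 were higher, against 50.0% of all genes, and 9 (22%) were at least 1.2-fold higher, against 11.7%.

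Single differences were small. In 28 of the 41 genes they exceeded the probe set SD of 0.23 in size, and in 13 they did not. Higher by more than that SD were 2753 of the 10393 measured genes, or 1542 after centring. Among the members, these were 1 of 8 G1, 8 of 11 replication, 17 of 20 S/G2 and mitosis and 1 of 2 inhibitor genes. After centring they were 1, 4, 9 and 1. Among all measured genes, 25 of the 41 lay above the 75th percentile of differences (0.24), 14 between the 25th and 75th percentiles and 2 below the 25th percentile, and 0 lay above the 95th (0.50). The set sat in the upper part of the ordinary range of these arrays, with no member at its far end. In bulk tissue, a larger share of dividing cells and more of these transcripts per cell cannot be told apart.

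**Figure D1:**
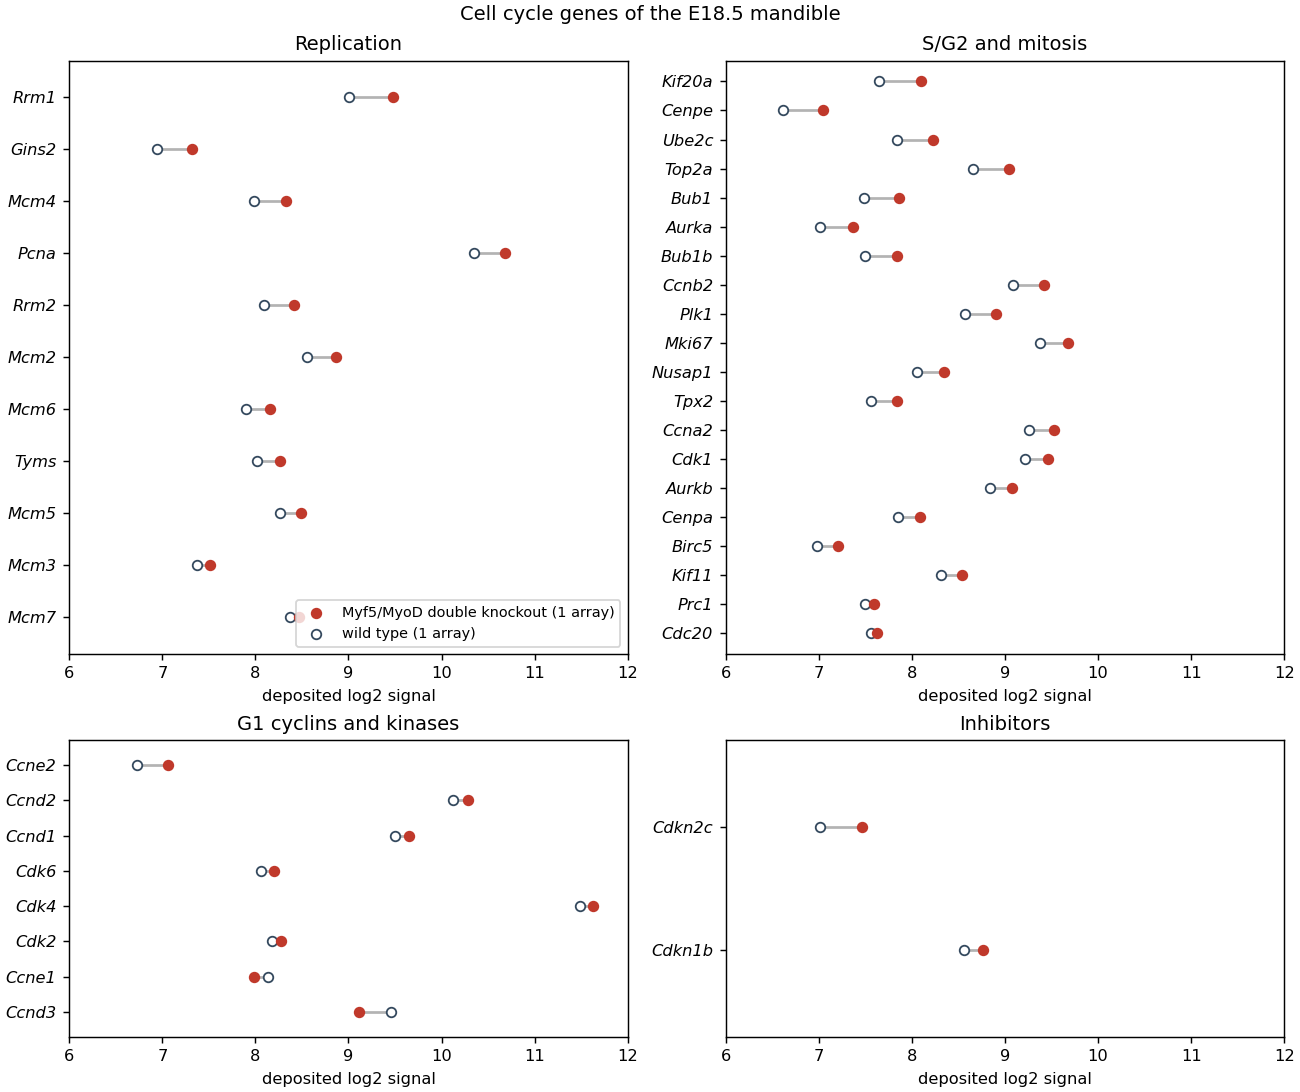
Deposited log2 signal (horizontal axis) of the 41 measured cell cycle genes on the double-knockout array (filled red) and the wild-type array (open), 1 array each, grouped by phase and ordered by difference. The filled point lies to the right of the open one in all but Ccnd3 and Ccne1, and the gap is under 0.5 log2 units in every gene shown.

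The G1 genes were nearest to the background and, as deposited, the only phase with lower members. Their median difference was 0.14, with 6 of 8 higher and 2 lower, or 5 and 3 after centring on the median of all genes, which leaves a median of 0.04. The kinases that partner the cyclins showed little: Cdk4 had 11.62 in the double knockout and 11.49 in the wild type, Cdk6 had 8.20 in the double knockout and 8.06 in the wild type, and Cdk2 had 8.27 in the double knockout and 8.17 in the wild type. These are differences of 0.14, 0.15 and 0.10, all inside the probe set SD, and the last turned to -0.003 after centring.

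The D-type cyclins, which pair with Cdk4 and Cdk6 and couple growth signals to the cycle, did not run one way. Ccnd1 had 9.65 in the double knockout and 9.49 in the wild type, and Ccnd2 had 10.28 in the double knockout and 10.12 in the wild type. Ccnd3, the cyclin D that differentiating muscle keeps, had 9.12 in the double knockout and 9.46 in the wild type. It was 1.27-fold lower, the 1 member past 1.2-fold in that direction, and 8.65% of all measured genes had a smaller (more negative) difference. Ccnd1 and Ccnd2, at 0.16 each, stood near the median of all genes.

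The cyclins E, which activate Cdk2 at the entry to S phase, also differed from each other. Ccne1 had 7.98 in the double knockout and 8.13 in the wild type, a difference of -0.15. Ccne2 had 7.06 in the double knockout and 6.73 in the wild type, a difference of 0.34 or 1.26-fold higher. Each of the 8 G1 genes has 1 probe set, so no second measurement on these arrays bears on either pair.

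Promoter sequence was available for Ccnd3 at both of its annotated starts, and is shown because Ccnd3 was the most clearly lower member. Sequences are from RefSeq on GRCm38.p6, cover the 150 bases before a start, read 5′ to 3′ along the gene, and carry in capitals any match to the motifs described further below (E2F, CHR and CCAAT). The window of the distal start is chr17:47504901-47505050, plus strand, and that of the proximal one chr17:47593317-47593466, plus strand. The first holds no match and the second a single CCAAT.
Ccnd3, distal start: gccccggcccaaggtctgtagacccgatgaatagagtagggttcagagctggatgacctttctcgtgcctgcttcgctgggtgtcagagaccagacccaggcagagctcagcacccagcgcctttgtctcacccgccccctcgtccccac
Ccnd3, proximal start: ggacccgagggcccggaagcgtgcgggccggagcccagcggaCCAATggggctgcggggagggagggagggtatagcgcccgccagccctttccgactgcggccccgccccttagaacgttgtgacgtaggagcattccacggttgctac

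All 11 replication genes were higher in the double knockout (10 after centring, where Mcm7 was at -0.002). Of all measured genes, 67.0% were higher, or 50.0% after centring. The median difference of the 11 was 0.31, and 8 lay past the 75th percentile of all measured genes. At least 1.2-fold higher were 6, against 21.4% of all measured genes, or 2 after centring, against 11.7%. The largest difference of the whole set was that of Rrm1, the large subunit of ribonucleotide reductase, which makes the deoxynucleotides for DNA. It had 9.48 in the double knockout and 9.01 in the wild type, or 1.38-fold more. Rrm2, the small subunit of the same enzyme, had 8.41 in the double knockout and 8.10 in the wild type. Tyms, thymidylate synthase, had 8.26 in the double knockout and 8.02 in the wild type. The 3 genes of nucleotide supply differed by 0.24 to 0.47, above the median of all measured genes.

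The MCM genes encode the 6 subunits of the helicase that opens DNA at origins, and the protein complex holds 1 copy of each. Their differences ranged from 0.10 to 0.34. Mcm4 was highest, with 8.32 in the double knockout and 7.99 in the wild type (0.34). Mcm2 followed with 8.87 in the double knockout and 8.55 in the wild type (0.31), then Mcm6 with 8.16 in the double knockout and 7.90 in the wild type (0.26). Mcm5 (0.22) and Mcm3 (0.15) lay inside the probe set SD. Mcm7, with 8.46 in the double knockout and 8.37 in the wild type, was close to the median of all genes (0.10).

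Gins2, a subunit of the GINS complex that joins the helicase when it is activated, had 7.31 in the double knockout and 6.94 in the wild type, or 1.29-fold more. Pcna, the sliding clamp that holds polymerases on DNA, was the one replication gene with a second probe set. The brighter gave 10.68 in the double knockout and 10.34 in the wild type, and the other gave 10.64 in the double knockout and 10.27 in the wild type. The differences of 0.34 and 0.37 were closer to each other than the SD between probe sets, although the second may read a near-identical copy of the gene.

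Upstream sequence of the replication genes is shown for Rrm1, the largest difference, and for Mcm6, which held the most E2F matches of all member promoters. The Rrm1 window is chr7:102441545-102441694, plus strand, and the Mcm6 window chr1:128359706-128359855, minus strand. Rrm1 has 2 CCAAT matches and no E2F match. Mcm6 has 3 E2F matches, of which the farthest pair overlap on opposite strands (bases 110 to 99 before the start), and 2 CCAAT matches.
Rrm1: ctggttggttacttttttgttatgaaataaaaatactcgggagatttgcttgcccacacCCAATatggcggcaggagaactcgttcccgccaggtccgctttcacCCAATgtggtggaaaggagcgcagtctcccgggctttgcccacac
Mcm6: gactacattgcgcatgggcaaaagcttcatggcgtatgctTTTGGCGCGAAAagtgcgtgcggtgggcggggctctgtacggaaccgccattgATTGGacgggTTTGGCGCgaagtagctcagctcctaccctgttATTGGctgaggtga

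All 20 measured genes of S phase, G2 and mitosis were higher in the double knockout, with a median difference of 0.30. After centring on the median of all genes, 18 were higher, the exceptions being Cdc20 (-0.03) and Prc1 (-0.001). Of all measured genes, 67.0% were higher, or 50.0% after centring. At least 1.2-fold higher were 13 of the 20, against 21.4% of all measured genes. After centring these were 6 of the 20, against 11.7%. Past the 75th percentile of all measured genes lay 15. The proliferation marker Mki67, whose protein coats mitotic chromosomes, had 9.68 in the double knockout and 9.38 in the wild type, a difference of 0.30 that matches the group's median.

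The kinase that drives entry into mitosis and its cyclins lay close together. Cdk1 had 9.46 in the double knockout and 9.21 in the wild type (0.25). Ccna2, the cyclin of S phase and G2, had 9.53 in the double knockout and 9.26 in the wild type (0.27). Ccnb2, a mitotic cyclin, had 9.42 in the double knockout and 9.09 in the wild type (0.33). Each of these is a 1.19-fold to 1.26-fold difference.

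Genes of the spindle and its motors gave both the largest and some of the smallest differences in the group. Kif20a, the kinesin that carries Aurora B to the central spindle, had 8.10 in the double knockout and 7.64 in the wild type, or 1.37-fold more. Cenpe, the kinesin of the kinetochore, had 7.04 in the double knockout and 6.62 in the wild type, or 1.34-fold more. Kif11, the motor that separates the spindle poles, had 8.54 in the double knockout and 8.31 in the wild type (0.22). Prc1, which bundles microtubules between the separating chromosomes, differed by only 0.10. Nusap1 (0.29) and Tpx2 (0.28), both microtubule-binding proteins of the spindle, lay between these.

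The mitotic kinases ran from 0.24 to 0.36. Aurka, active at the poles, had 7.37 in the double knockout and 7.01 in the wild type. Plk1, the polo kinase, had 8.90 in the double knockout and 8.57 in the wild type, and Aurkb, active at centromeres, had 9.08 in the double knockout and 8.83 in the wild type. Birc5 (survivin), which anchors Aurora B at the centromere, differed by 0.23, as did Cenpa, the centromeric histone.

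The checkpoint that delays anaphase and the ubiquitin ligase it restrains showed unequal differences. Bub1, a checkpoint kinase, had 7.86 in the double knockout and 7.48 in the wild type (0.38), and Bub1b, its relative, had 7.84 in the double knockout and 7.50 in the wild type (0.34). Ube2c, the ubiquitin-conjugating enzyme of the anaphase-promoting complex, had 8.22 in the double knockout and 7.84 in the wild type, or 1.31-fold more. Cdc20, the activator of the same complex and the checkpoint's target, had 7.62 in the double knockout and 7.55 in the wild type, at 0.07 the smallest difference of the 41. Top2a, the topoisomerase that untangles sister chromatids, had 9.04 in the double knockout and 8.65 in the wild type, or 1.31-fold more.

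**Figure D2:**
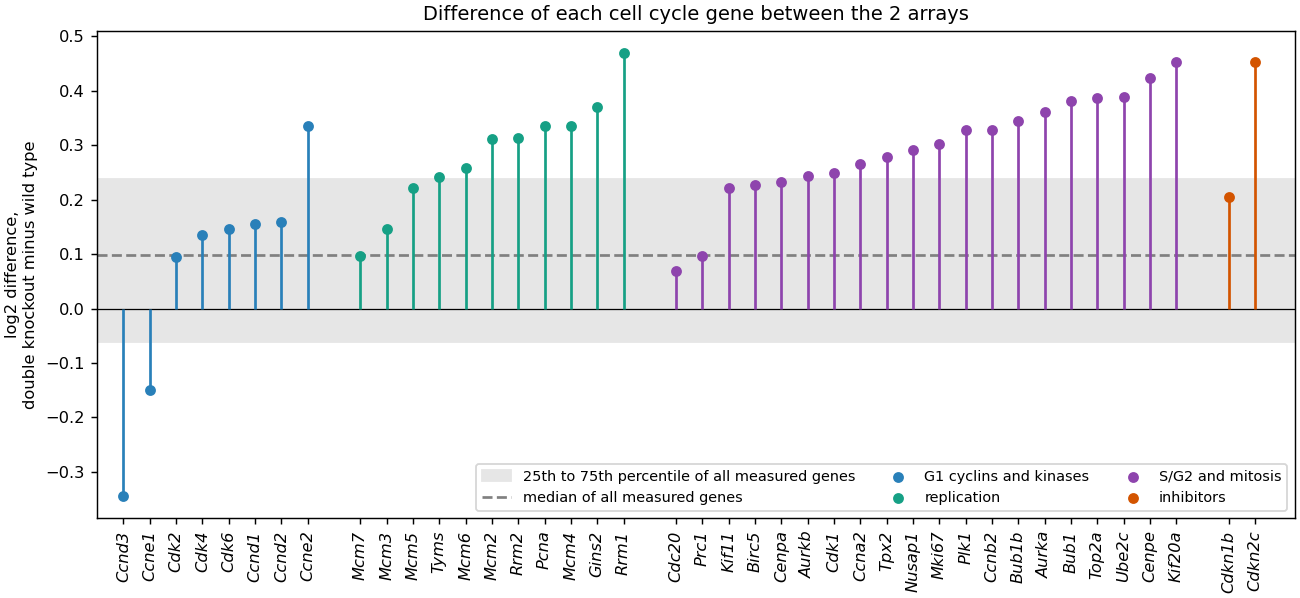
Log2 difference, double knockout minus wild type, of each measured cell cycle gene (1 array each, no error bars), ordered within its phase. The dashed line is the median of the 10393 measured genes (0.098) and the grey band their 25th to 75th percentile (-0.06 to 0.24). Points of replication and of S/G2 and mitosis lie mostly above the band, the G1 genes mostly inside it, and Ccnd3 and Ccne1 below it.

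Upstream sequence of the mitotic genes is shown for Cdk1, Ube2c and Top2a, which hold both CCAAT and CHR matches and had differences from 0.25 to 0.39. The Cdk1 window is chr10:69352913-69353062, minus strand, that of Ube2c chr2:164769779-164769928, plus strand and that of Top2a chr11:99024190-99024339, minus strand. In Cdk1 the CHR matches lie 71 to 66 and 15 to 10 bases before the start. In Ube2c a match on the opposite strand lies 29 to 24 bases before it.
Cdk1: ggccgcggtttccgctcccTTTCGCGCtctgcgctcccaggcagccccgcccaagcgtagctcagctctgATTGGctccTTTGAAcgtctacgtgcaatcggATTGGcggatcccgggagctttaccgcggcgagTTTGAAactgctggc
Ube2c: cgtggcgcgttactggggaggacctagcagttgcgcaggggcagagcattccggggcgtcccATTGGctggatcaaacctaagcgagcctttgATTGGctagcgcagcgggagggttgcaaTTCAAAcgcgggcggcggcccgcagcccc
Top2a: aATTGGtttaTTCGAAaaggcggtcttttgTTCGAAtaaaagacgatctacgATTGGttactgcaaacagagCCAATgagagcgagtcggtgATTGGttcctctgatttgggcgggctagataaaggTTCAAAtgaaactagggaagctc

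The motifs were counted in the 250 bases before each start, on both strands, for the 34 members with promoter entries (39 starts). The 34 include Ccnb1 and Cdkn1a, which have no signal difference of their own here, and the windows of the Prc1 starts overlap. The E2F letters were TTTCCCGC, TTTGGCGC, TTTCGCGC and TTTGCCGC. The CHR letters, the site of the DREAM complex in mitotic promoters, were TTTGAA and TTCGAA, and the NF-Y letters were CCAAT. Matches of different E2F letters may overlap each other. CCAAT was found at 28 of 39 member starts (71.8%), against 33.8% of the 32851 promoters in the table. E2F letters were found at 5 of 39 (12.8%, against 1.86%) and CHR letters at 11 of 39 (28.2%, against 17.1%).

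By phase, CHR letters stood at 9 of 18 starts of S/G2 and mitosis genes, at 2 of 10 replication starts, and at 0 of 6 G1 starts and 0 of 5 inhibitor starts. The replication share (20.0%) is near the 17.1% of all promoters in the table. E2F letters stood at 3 of 10 replication, 1 of 6 G1, 1 of 18 mitosis and 0 of 5 inhibitor starts, against 1.86% of all promoters. CCAAT stood at 9 of 10 replication starts and 16 of 18 mitosis starts. In G1 it stood at 2 of 6 (33.3%), near the 33.8% of all promoters. These letters describe the windows and show no binding. Cdc20, and Prc1 at 1 of its 2 starts, hold CCAAT and CHR letters and were the mitotic genes with the smallest differences.

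Both inhibitors of the set with a probe set of their own were higher in the double knockout, as were 67.0% of all measured genes. After centring both stayed higher, against 50.0% of all genes. Cdkn1c, an inhibitor outside the set that is described further below, was lower (-0.64). Cdkn2c, an INK4 protein that binds Cdk4 and Cdk6, had 7.46 in the double knockout and 7.01 in the wild type, or 1.37-fold more, as large as the difference of Kif20a. Cdkn1b, which binds cyclin E with Cdk2, had 8.77 in the double knockout and 8.56 in the wild type (0.20), inside the probe set SD of 0.23. Its second probe set, below the floor on both arrays, gave 5.69 in the double knockout and 5.38 in the wild type.

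Cdkn1a, the inhibitor that MyoD is known to induce in differentiating mouse myoblasts, cannot be given a value of its own. The probe set that names it also names 4930567H12Rik. That shared probe set had 9.90 in the double knockout and 10.41 in the wild type, a difference of -0.51 or 1.43-fold lower. Its direction is opposite to that of 39 of the 41 members, and which of its genes carried it was not tested.

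Other genes of the cell cycle were also mostly higher in the double knockout, with smaller differences. A further 127 genes of its control, of replication and of mitosis were listed, of which 125 had a probe set of their own and 110 were measured. Of the 110, 97 were higher (88.2%) and 12 lower (10.9%), against 67.0% and 32.2% of all measured genes, with 1 the same on both arrays. At least 1.2-fold higher were 34 (30.9%, against 21.4%) and at least 1.2-fold lower were 4 (3.64%, against 11.3%). Their median difference was 0.18. After centring, 79 of the 110 (71.8%, against 50.0%) were higher and 15 (13.6%, against 11.7%) at least 1.2-fold higher, so that the second share was then near the background. In 10 of the 110, one array lay at the floor, so that the difference is a bound.

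The replication genes in that list had 30 of 31 higher (median 0.20) and the mitotic genes 44 of 47 (median 0.19), or 24 and 35 after centring. Of all measured genes 67.0% were higher, or 50.0% after centring. At least 1.2-fold higher after centring were 22.6% of the replication genes and 12.8% of the mitotic genes, the latter near the 11.7% of all genes. Ticrr, which loads Cdc45 onto origins, had 7.20 in the double knockout and 6.68 in the wild type, or 1.44-fold more. Rfc5 (1.41-fold higher) and Rfc4 (1.39-fold higher) belong to the clamp loader that places Pcna on DNA. Cks2, a small protein that binds cyclin-dependent kinases, had 3 probe sets, with differences of 0.55, 0.50 and 0.48. Whether all 3 read the same gene was not tested. Ncaph, a subunit of condensin, and Incenp, the scaffold that binds Aurora B and survivin, were both 1.36-fold higher. The mitotic gene most below its wild-type value was Spc25, of the kinetochore, at 6.63 in the double knockout and 6.81 in the wild type.

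In the share that was higher, the control genes were near the background. Of 32 measured, 23 were higher (71.9%, against 67.0% of all measured genes) and 9 lower, or 20 (62.5%, against 50.0%) and 12 after centring. Of the 110 other cell cycle genes, 4 were at least 1.5-fold lower (3.64%, against 5.11% of all measured genes). All 4 are among the 32 control genes, where they make up 12.5%. At least 1.5-fold higher were 0 of the 110, against 3.07% of all measured genes. Ccng1, an atypical cyclin known as a target of the tumour suppressor Trp53, had 9.83 in the double knockout and 10.94 in the wild type, or 2.16-fold lower. E2f6, a repressor E2F that does not bind retinoblastoma proteins, had 6.996 in the double knockout and 7.718 in the wild type, or 1.65-fold lower. Cdkn1c, an imprinted Cip/Kip inhibitor, had 9.77 in the double knockout and 10.41 in the wild type, or 1.56-fold lower.

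Rb1, the retinoblastoma protein gene, had 7.98 in the double knockout and 8.57 in the wild type, or 1.51-fold lower. The related pocket protein genes, named here after their values were seen, had differences of 0.27 (Rbl1) and 0.11 (Rbl2), the second near the median of all genes. Tfdp2, a DNA-binding partner of E2F factors, had 7.47 in the double knockout and 7.73 in the wild type (-0.26).

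**Figure D3:**
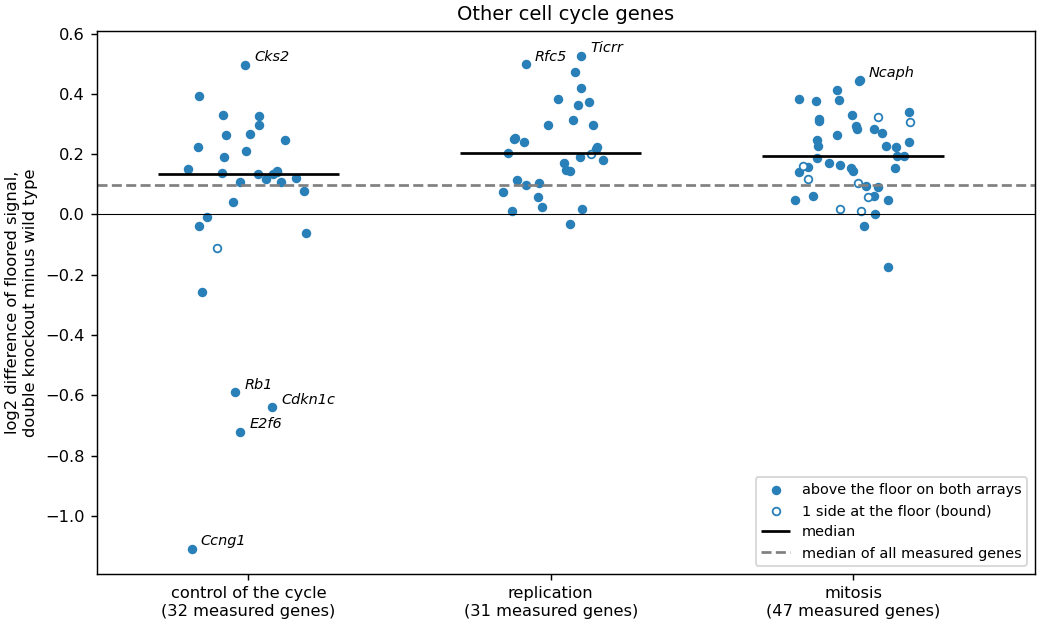
Log2 difference of floored signal, double knockout minus wild type, of 110 other cell cycle genes in 3 lists (1 array each; horizontal position within a list has no meaning). Bars are list medians (0.13, 0.20 and 0.19), open points are bounds, and the dashed line is the median of all measured genes. Ccng1, E2f6, Cdkn1c and Rb1, all in the control list, lie apart from the rest at -0.59 or below.

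**Figure D4:**
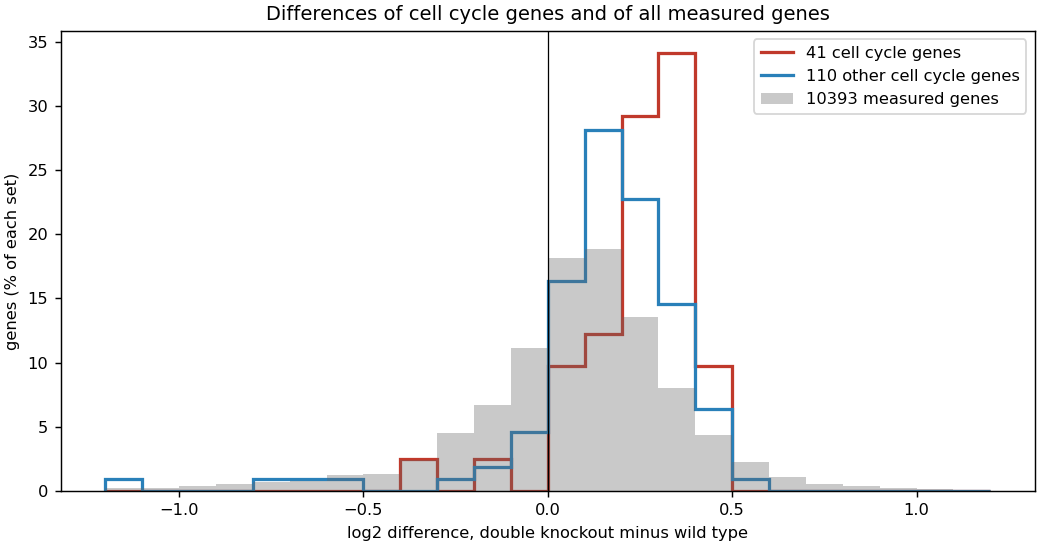
Distribution of log2 differences, double knockout minus wild type, as a percentage of each set in bins of 0.1, for the 41 cell cycle genes (red), 110 other cell cycle genes (blue) and all 10393 measured genes (grey, 266 of them outside the plotted range). The red outline peaks between 0.3 and 0.4, where 34.1% of the 41 genes and 8.05% of all genes lie.

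Markers of skeletal muscle and salivary gland differed between the same 2 arrays by more than any cell cycle gene named here. All 8 skeletal muscle markers were lower, between 3.85 and 6.33 in the double knockout with 1 of 8 above the floor, against 7.70 to 12.20 in the wild type, and their summed linear signal was at least 39.9-fold lower, with the 7 values under the floor raised to it. All 6 salivary gland markers were higher, with a median difference of 3.28, and so were all 5 measured osteoclast markers (0.84), all 6 epithelial markers (0.42) and all 4 measured osteoblast markers (0.31). Cartilage had 2 of 3 measured markers higher, the endothelial list 3 of 6 (2 after centring) and the macrophage list 2 of 6 (-0.27), and the 3 measured erythroid markers were lower. With 67.0% of all measured genes higher and 32.2% lower, direction alone says little in such short lists. At least 1.2-fold higher were all measured salivary and osteoclast markers, 4 of 6 epithelial and 2 of 4 osteoblast markers (background 21.4%). In the cartilage, endothelial, macrophage and erythroid lists these were 2, 1, 2 and 0. The part of tissue makeup in the cell cycle differences was not tested.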

How the data were processed

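Each sample, from mandibles at E18.5, was hybridised as biotin-labelled cRNA to 1 Affymetrix array, per the labels' protocols. The authors deposited 1 log2 value per probe set and array; that the base is 2 was read from the values, which ran from 1.42 to 13.34 in the double knockout and from 1.42 to 13.35 in the wild type. MAS5 is named, without a version, in the submitters' processing notes; background correction, scaling and the step that gave logarithms were not given in the sources used here. The arrays were compared as deposited, since medians (5.45 in the double knockout, 5.48 in the wild type) and trimmed means (ratio 1.02) of all probe sets were close. Among the measured genes alone an offset remained, with a median difference of 0.098, so that counts are also given after centring.

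Genes were named from GEO's platform annotation: 21789 probe sets named 1 gene, 1621 several and 12147 none, and only the first kind entered gene values. A RefSeq table of GRCm38.p6 held 19856 of the 19938 genes by their Entrez number. Values under each array's floor (the median of annotated probe sets) were raised to it, and a gene was represented by its probe set of highest mean signal on the linear scale. A difference of 1.2-fold was used for counts. All 43 members are named, with up to 6 other cell cycle genes in each direction. The members, lists and thresholds were chosen with earlier results of these data known. The code was tested on simulated arrays with known differences. These were larger than the difference of any member, so the test does not cover differences of the members' size. Precision is limited by the number of arrays. Python 3.11.15, numpy 2.4.6 and pandas 2.3.3 were used. Alternatives were 2 other scalings, 4 other floors, the median over probe sets and other fold thresholds.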

Additional observations from a re-analysis of the deposited data

How the results depend on the processing

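With 1 array for each genotype, no left-out sample and no test could be run. No paired analysis was possible because each genotype has 1 sample. The median difference of the 41 genes stayed above 0 under each of 8 alternatives, between 0.17 after centring on the median of all genes and 0.27, with 0.24 for the 32 genes above a floor set to the 75th percentile. Lowering or removing the floor could not change that median, as all 41 lie above the floor on both arrays. Except after centring, the median of all measured genes was also above 0 under these scalings and floors, from 0.056 with no floor to 0.098 as reported. Without the 3 members that have several probe sets, an alternative chosen after seeing the data, as was a floor taken over all probe sets, 36 of 38 were higher, against 67.0% of all measured genes. The count at least 1.2-fold higher depended most on the settings. It was 21 as reported, 18 after quantile normalisation, 9 after centring and 13 of 32 when the floor was the 75th percentile. Among the 10393 measured genes the counts were 2226 as reported, 1930 after quantile normalisation and 1220 after centring. The share of all genes was not counted at the 75th percentile floor. At thresholds of 1.5-fold and of 2-fold the count of members was 0, against 319 and 53 of all measured genes. For the other cell cycle genes, 34 became 15 after centring and 8 of 31 when the floor was the 75th percentile. At that floor fewer genes are measured, and 26 of 31 were higher, against 67.2% of all genes measured. Cdk2, Mcm7, Prc1 and Cdc20 changed sign after centring, by less than the probe set SD. In windows of 100 bases before the start, E2F letters were found at 2.56% of member starts, against 0.846% of all promoters in the table.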

Other observations

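Some probe sets that name members entered no comparison. A second Top2a probe set was far below the floor, at 2.16 in the double knockout and 2.31 in the wild type, and 2 probe sets that name both Top2a and Hibadh were at 3.02 and 3.30 in the double knockout, against 3.07 and 3.37 in the wild type. Pttg1, the separase inhibitor securin, had the same deposited value on both arrays (6.72), as did 1626 probe sets in all, and the step that gave identical values was not given in the sources used here.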
